A study of Rattus norvegicus with 8 samples.

Results

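Genes of the p53 response, of apoptosis and of growth arrest were followed in primary rat nucleus pulposus cells in which TonEBP had been knocked down. The members were taken from a list of 43 names by matching each to the gene symbol in the deposited table. Trp53inp1 and Tp53inp1 name 1 gene, so that the list stands for 42 genes, and 40 of them were found among the 13613 genes of the table. Perp and Mcl1 were not analysed here. By their roles the 40 fall into 3 genes that control p53, 16 of arrest and growth control, 4 of DNA repair, 15 that promote cell death and 2 that promote survival.

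The nucleus pulposus forms the soft centre of an intervertebral disc, and its cells live at high and changing osmolarity. TonEBP, encoded by Nfat5, is the transcription factor that switches on osmoprotective genes. The knockdown cells were transduced with a short hairpin RNA against TonEBP (4 libraries), and the control cells, labelled PLKO1, with a control construct (4 libraries). Both groups were expanded from tissue explants and were kept for 8 h before RNA isolation in medium to which 110 mM NaCl had been added, so all values describe hypertonic culture. Each group holds 1 library from each of Sets 1 to 4. The labels do not say what a Set is or whether the Sets are separate animals or cultures, so p-values measure the spread between these libraries, which may be technical. The sources used here do not give the hairpin's sequence or the age and strain of the rats.

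Libraries held from 12001853 to 15782202 reads on the listed genes in knockdown cells and from 9567488 to 14743387 in control cells. Nfat5, the targeted gene, measured 86.7, 68.1, 38.8 and 32.2 CPM (reads scaled to library size) in knockdown libraries 1 to 4, against 137, 183, 142 and 66.1 in control libraries 1 to 4. Knockdown was the lower library in all 4 Sets, while across Sets knockdown libraries 1 and 2 lay above control library 4. The exact 2-sided permutation test over the 8 libraries, which ignores the Sets, gave p = 0.0857, where 0.0286 is the smallest possible. Limma gave Nfat5 an adjusted p of 0.378, or 0.0591 blocking on the Set, and DESeq2 with that block 9.66e-06. Nfat5 is listed at log2 -1.12 (adjusted p 1.21e-05) in the authors' deposited table. Of the 18 nucleus pulposus markers looked for, 13 were found, and they summed to between 29140.4 and 45492 normalized counts in knockdown libraries and between 21952 and 42006 in control libraries. The filament gene Vim, at 14337 to 27174 over the 8 libraries, and Hif1a, at 3842 to 8551, made up most of that sum in most libraries, and Ncdn (863 to 1228) and Foxf1 (154 to 262) were also present throughout. Krt8 ran from 77.1 to 865 and Car3 from 23.2 to 15939. The collagen gene Col2a1 and the transcription factor gene Sox9 were near 0, with highest values of 8.76 and 29.2, and the highest values of Krt18 and Car12 were 24.7 and 13.1. Macrophage and leukocyte markers (6 of 14 found) summed to between 409 and 634 normalized counts in knockdown libraries and between 539 and 759 in control libraries. The ratio of these sums, knockdown over control, was 0.731, 0.75, 0.683 and 1.18 in Sets 1 to 4. Emr1 among them was low in both groups, at 0 in all 4 knockdown libraries and 0.876, 0, 1.23 and 10.6 in control libraries 1 to 4. Endothelial markers (4 of 10 found) summed to between 180.5 and 353 in knockdown libraries and between 173 and 257 in control libraries, smooth muscle and pericyte markers (7 of 9) to between 9883 and 30733 and between 11289.9 and 22511, and those of the notochordal sheath, annulus and fibroblasts (9 of 10) to between 158332 and 398201 and between 163262 and 255421. The same ratio was 1.08, 1.08, 1.02 and 1.67 in Sets 1 to 4 for nucleus pulposus markers and 1.05, 1.20, 1.13 and 1.37 for endothelial ones. It was 1.37, 0.933, 0.813 and 0.924 for smooth muscle and pericyte markers. For the sheath, annulus and fibroblast markers it was 1.68, 1.58, 0.915 and 1.35. Among these last, Col1a1 was higher in all 4 Sets, while Pdgfra was lower in Sets 2 to 4. The part of these cell types in the results was not tested. Because whole cultures were sequenced, fewer cells of a type and less RNA per cell cannot be told apart.

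The protein p53 is a transcription factor held low by the ubiquitin ligase MDM2 and its partner MDM4. When it is stabilised, for example by DNA damage, it binds paired copies of a short DNA unit near its target genes and raises inhibitors of the cell cycle, repair proteins, killers of the cell and also Mdm2 itself, which closes a feedback loop. Death through mitochondria is decided within the BCL2 family: BH3-only proteins neutralise guardians such as BCL2 and BCL-XL (Bcl2l1), PUMA (Bbc3) acting broadly and NOXA (Pmaip1) mainly on MCL1 and A1 (Bcl2a1), and free BAX and BAK to open the outer membrane, after which APAF1 assembles caspase 9 into an active complex. In kidney medulla cells high salt is known to activate p53 and to raise the Gadd45 genes. Several of these genes also answer to other factors, such as Cdkn1b, Ccng2 and Bcl2l11 to FOXO proteins, or Pmaip1, Bbc3 and Gadd45a to the stress factors ATF4 and CHOP.

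Promoter windows, from 250 bases before to 50 bases after the annotated start, were found for 31 of the 40 members in RefSeq (GRCr8), and 4 of them are shown because each holds letters that belong to a factor named above. The windows of Cdkn1a and Ccng1 carry a p53 site, that is 2 adjacent p53 decamers with at most 1 base off the consensus, marked in capitals. They lie at chr20:7150682-7150981 on the plus strand (Cdkn1a) and at chr10:25684827-25685126 on the minus strand (Ccng1).
Cdkn1a: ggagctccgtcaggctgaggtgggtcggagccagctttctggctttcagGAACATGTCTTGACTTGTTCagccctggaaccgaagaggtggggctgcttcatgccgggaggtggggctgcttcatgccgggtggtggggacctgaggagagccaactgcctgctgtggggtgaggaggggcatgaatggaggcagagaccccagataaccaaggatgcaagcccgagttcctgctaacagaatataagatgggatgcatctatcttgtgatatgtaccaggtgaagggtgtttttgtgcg
Ccng1: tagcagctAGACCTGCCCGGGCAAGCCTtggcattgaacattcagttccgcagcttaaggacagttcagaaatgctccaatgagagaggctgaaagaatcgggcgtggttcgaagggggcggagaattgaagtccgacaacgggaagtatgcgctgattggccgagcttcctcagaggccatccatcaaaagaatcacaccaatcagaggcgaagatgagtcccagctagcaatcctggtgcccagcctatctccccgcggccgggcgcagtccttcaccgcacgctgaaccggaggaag
Such a site stood in 2 of the 31 members, these 2, and in 0.0717% of all 33469 rat windows of that length, and it begins 201 bases before the start in Cdkn1a and 242 before it in Ccng1. A single p53 decamer with no base off stood in 6 members (Aen, Ccng1, Cdkn1a, Ei24, Gadd45a and Sesn1) and in 7.98% of all windows. The window of Pmaip1, at chr18:62255720-62256019 on the plus strand, holds 1 copy of TGACGTNA, the core bound by ATF and CREB family proteins, on its reverse strand (capitals). The window of Xpc, at chr4:125578035-125578334 on the minus strand, holds TGGAAA, the core of the tonicity element that TonEBP binds, also on its reverse strand (capitals).
Pmaip1: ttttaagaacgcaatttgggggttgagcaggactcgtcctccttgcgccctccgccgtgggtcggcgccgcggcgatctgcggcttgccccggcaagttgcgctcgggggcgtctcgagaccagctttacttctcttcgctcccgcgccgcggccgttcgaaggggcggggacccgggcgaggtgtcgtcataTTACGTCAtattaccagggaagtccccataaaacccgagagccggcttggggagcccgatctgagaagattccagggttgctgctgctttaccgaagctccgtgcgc
Xpc: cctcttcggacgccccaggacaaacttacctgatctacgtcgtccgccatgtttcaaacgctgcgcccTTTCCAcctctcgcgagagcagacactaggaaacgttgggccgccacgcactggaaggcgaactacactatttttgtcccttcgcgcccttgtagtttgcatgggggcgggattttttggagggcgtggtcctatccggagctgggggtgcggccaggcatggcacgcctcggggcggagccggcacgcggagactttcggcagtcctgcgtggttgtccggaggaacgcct
TGACGTNA stood in 5 of the 31 members (Btg2, Cdkn2b, Plk2, Plk3 and Pmaip1) and in 3.25% of all windows. TGGAAA stood in 1 of the 31 members and in 22.7% of all windows, while the longer tonicity element consensus stood in 0 of the 31 and in 5.98% of all windows. Both strands were searched, the single decamer lies inside the longer p53 site and TGGAAA inside the tonicity element, and the matches describe letters in these windows only. The 31 members have 34 windows and were counted by gene, while the shares over all are per window. Known p53 targets were put on the list as such, so their p53 sites are no result of these data.

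At an adjusted p under 0.05 in the authors' deposited table, knockdown cells are listed as higher for 8 of the 38 members that have an adjusted p (21.1%, against 4.09% of all genes), namely Cdkn1a, Cdkn1b, Gadd45a, Ccng2, Xpc, Pmaip1, Bbc3 and Apaf1. It lists 0 members as lower (5.22% of all genes). The 8 fall into the arrest, repair and death classes, and each was higher in the knockdown library of all 4 Sets. Being higher in all 4 Sets held for 14 of the 39 members that passed the filter on low reads (35.9%, against 17.0% of all genes tested), and being lower in all 4 held for 7 (17.9%, against 16.2%). The 4 knockdown and 4 control libraries did not overlap for Zmat3 and Xpc, which were higher (2.90% of all genes), and for Bcl2l1, which was lower (3.44% of all genes).

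Refits of the deposited values called fewer of the members. Limma on log2(normalized count + 1), with group as the only term, passed 0 of the 39 members at an adjusted p under 0.05 (0.00808% of all genes), and edgeR's quasi-likelihood test also passed 0 (0.00808%). At an unadjusted p under 0.05, limma had 6 members higher (4.36% of all genes), Cdkn1a, Cdkn1b, Ccng2, Xpc, Pmaip1 and Apaf1, and Bcl2l1 lower (5.14% of all genes). Blocking on the Set, limma passed 0 members and edgeR 0 (0% of all genes in each). Limma with the block had 11 members higher (11.1% of all genes) and 5 lower (12.0% of all genes) at an unadjusted p under 0.05, the added ones being Gadd45a, Zmat3, Tp53inp1, Bbc3 and Ei24 (higher) and Gadd45b, Btg1, Rrm2b and Bak1 (lower). DESeq2 without the block passed Xpc as higher (0.597% of all genes) and 0 as lower (0.833% of all genes). DESeq2 with the block passed 7 as higher (4.31% of all genes), the 8 of the authors' deposited table without Bbc3, and 0 as lower (5.45% of all genes). That count of 7 was 7 without both libraries of Set 1 (2.60% of all genes), 2 without those of Set 2 (0.943%), 4 without those of Set 3 (2.76%) and 3 without those of Set 4 (1.72%), and Ccng2 was the member called in every case.

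**Figure D1:**
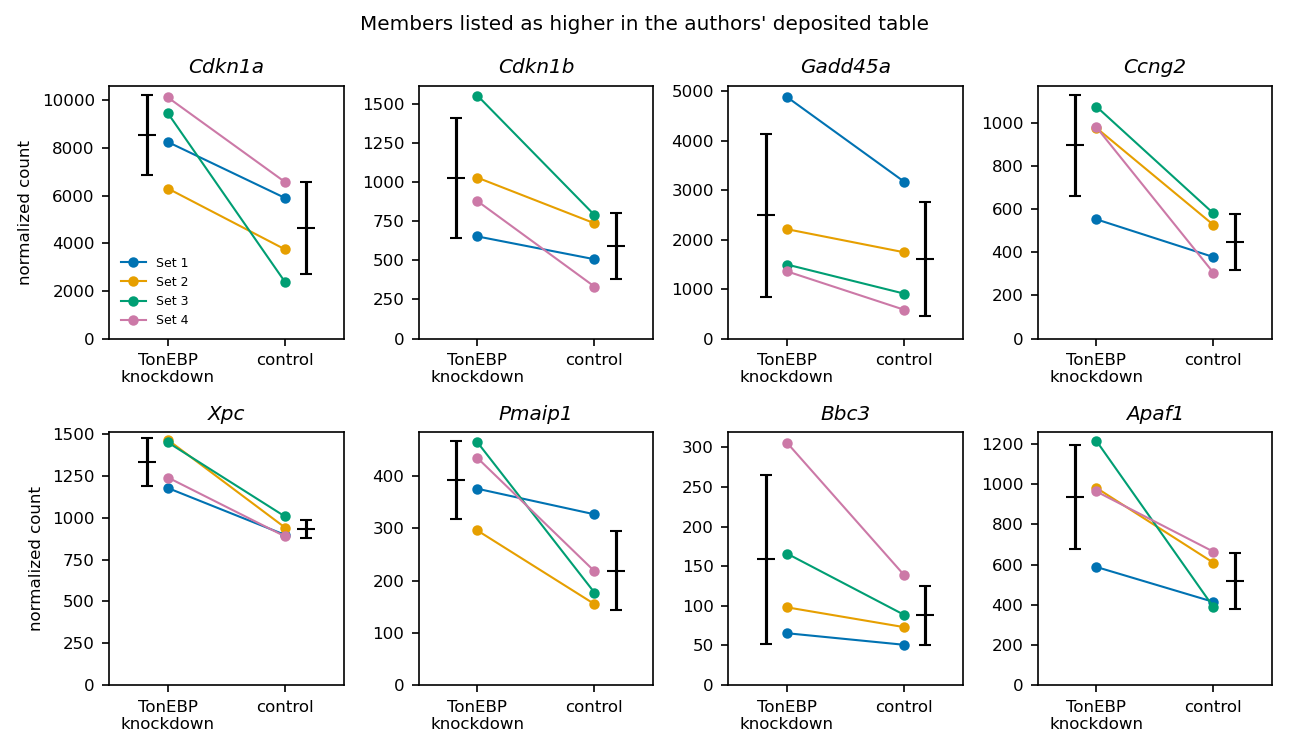
Normalized counts (y axes, starting at 0) of the 8 members listed as higher in the authors' deposited table, with TonEBP knockdown on the left and control on the right of each panel. Points are single libraries joined within a Set, and black bars are means ± SD (n = 4 each). All lines slope down towards control, and for Xpc alone among these 8 the lowest knockdown library (1178) lies above the highest control library (1008).

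Growth arrest was the class with the largest share of members above 0. Of its 16 members, all of them tested, 13 had a log2 fold change above 0 and 3 below, with a median of 0.43 where the median over all genes tested was 0.00. The authors' deposited table lists 4 as higher.

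Cdkn1a (ENSRNOG00000000521) encodes p21, which blocks cyclin-dependent kinases and is the classical p53 target in arrest. It measured 8249, 6297, 9456 and 10119 normalized counts in knockdown libraries 1 to 4, against 5901, 3743, 2376 and 6569.7 in control libraries 1 to 4. Knockdown library 2 lay below control library 4, so the groups overlapped, but within each Set the knockdown library was the higher one. Means were 8530.2 ± 1678 in knockdown and 4647 ± 1936 in control cells (SD, n = 4), a ratio of 1.84. The limma log2 fold change was 0.96 ± 0.328 (SE), with an adjusted p of 0.43 (0.108 blocking on the Set), and the authors' deposited table gives 0.80 and 0.012. The log2 difference was 0.48, 0.75, 1.99 and 0.62 in Sets 1 to 4, so Set 3, whose control library was the lowest of all 8, differed most.

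Cdkn1b (ENSRNOG00000007249), the sister inhibitor p27, measured 653, 1029, 1554 and 879 normalized counts in knockdown libraries 1 to 4, against 507, 737, 789.9 and 332 in control libraries 1 to 4. The knockdown library was higher in each Set, by log2 0.36, 0.48, 0.98 and 1.40, while across Sets the groups overlapped, since knockdown library 1 lay under control libraries 2 and 3. Limma gave a log2 fold change of 0.81 ± 0.34 (SE, adjusted p 0.513), or a standard error of 0.189 with the Set as a block (adjusted p 0.0921). The adjusted p in the authors' deposited table is 0.00928. Cdkn1c, the inhibitor p57, had between 1 and 19 reads per library, and was higher in all 4 Sets, while Cdkn2b, the inhibitor p15, had log2 differences of 0.29, -0.53, 0.12 and -0.55 in Sets 1 to 4, higher in Sets 1 and 3 and lower in Sets 2 and 4.

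Ccng2 (ENSRNOG00000002089), an atypical cyclin that holds cells in arrest, measured 553, 977, 1076 and 980.3 normalized counts in knockdown libraries 1 to 4, against 378, 527, 580.4 and 305 in control libraries 1 to 4. Knockdown library 1 lay under the highest control library, and the other 3 knockdown libraries were all well above it. Limma gave it the largest log2 fold change of the 39 members, 1.00 ± 0.278 (SE, adjusted p 0.37, or 0.0737 when blocked on the Set). The authors' deposited table gives an adjusted p of 0.00077. Its relative Ccng1, a p53 target that recruits a phosphatase to MDM2, measured 13713, 13209, 22352 and 18174 normalized counts in knockdown libraries 1 to 4, against 13075, 10464, 10182 and 16199 in control libraries 1 to 4. Ccng1 was higher in all 4 Sets, by log2 0.07, 0.34, 1.13 and 0.17, with most of the difference in Set 3, and did not pass (limma adjusted p 0.626, or 0.277 blocking on the Set, and 0.234 in the authors' deposited table).

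The Gadd45 genes encode small stress sensors that inhibit the CDK1 complex and open p38 and JNK signalling. Gadd45a was higher and Gadd45b lower in all 4 Sets, and only Gadd45a is listed as higher in the authors' deposited table. Gadd45a (ENSRNOG00000005615) measured 4886, 2212, 1497 and 1359 normalized counts in knockdown libraries 1 to 4, against 3175, 1745, 909 and 583 in control libraries 1 to 4. Levels were highest in Set 1 and lowest in Set 4 in both groups, and the knockdown library exceeded its control in each, by log2 0.62, 0.34, 0.72 and 1.22. The standard error was 0.575 in limma without the Set and 0.156 with it (log2 fold change 0.73, adjusted p 0.758 and 0.0821), and the authors' deposited table gives an adjusted p of 0.00569. For Gadd45b the log2 differences were -0.32, -0.29, -0.46 and -0.07, with a limma adjusted p of 0.822 (0.209 blocking on the Set). Gadd45g had 666, 373, 318 and 905 normalized counts in knockdown libraries 1 to 4, against 470.5, 324, 372 and 122 in control libraries 1 to 4, and its mean difference was carried by Set 4 (log2 2.88).

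Other growth regulators were not called. Zmat3, an RNA-binding p53 target, measured 552, 508, 918 and 629.5 normalized counts in knockdown libraries 1 to 4, against 472, 419, 497 and 496 in control libraries 1 to 4. Every knockdown library of Zmat3 was above every control library, yet the limma log2 fold change of 0.43 (standard error 0.2) had an adjusted p of 0.543 (0.152 blocking on the Set), and 0.132 in the authors' deposited table. Tp53inp1, which assists p53 and autophagy, was higher in all 4 Sets by log2 0.03, 0.49, 0.69 and 0.63, and Sesn1, a restraint on the growth kinase mTORC1, in 3 of them (log2 0.35, -0.08, 0.17 and 0.71). Plk2, a stress-induced kinase of the centrosome cycle, measured 2608, 1504, 1123 and 1521 normalized counts in knockdown libraries 1 to 4, against 4012, 1173, 495 and 1064 in control libraries 1 to 4, lower in Set 1 and higher in the other Sets; its relative Plk3 was higher in Sets 2 and 3 and lower in Sets 1 and 4. Of the antiproliferative pair, Btg1 was lower in all 4 Sets (log2 -0.34, -0.13, -0.74 and -0.33, limma adjusted p 0.722, or 0.156 blocking on the Set). Btg2 had log2 differences of 0.06, -0.11, 1.21 and -1.08 and a single high control library (4519, the others between 675 and 739).

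Genes that control p53 itself showed no call. Mdm2, at once the inhibitor of p53 and its target, measured 4617, 3821, 6724 and 6482 normalized counts in knockdown libraries 1 to 4, against 5091, 3139.7, 2585 and 4444 in control libraries 1 to 4. The knockdown library was slightly lower in Set 1 and higher in Sets 2 to 4, by log2 -0.14, 0.28, 1.38 and 0.54, with a limma log2 fold change of 0.52 ± 0.272 (SE) and an adjusted p of 0.597 (0.255 blocking on the Set). Its partner Mdm4 stayed within 209 to 345 normalized counts in all 8 libraries and was lower in all 4 Sets by small amounts (log2 -0.13, -0.16, -0.03 and -0.28). Ppm1d, the phosphatase WIP1 that switches off p53 and its kinases, had log2 differences of -0.10, -0.22, 0.40 and 0.60, below 0 in Sets 1 and 2 and above 0 in Sets 3 and 4.

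Of the 4 DNA repair members, Xpc was above 0 and the other 3 below, with a median of -0.11. Xpc (ENSRNOG00000008274), the lesion finder of nucleotide excision repair, measured 1178, 1466, 1451 and 1241 normalized counts in knockdown libraries 1 to 4, against 898, 942, 1008 and 889 in control libraries 1 to 4. The groups did not overlap and the differences in the 4 Sets lay close together, at log2 0.39, 0.64, 0.53 and 0.48. Means were 1334 ± 146 in knockdown and 934 ± 54.3 in control cells (SD, n = 4), with a limma log2 fold change of 0.51 ± 0.129 (SE) and an adjusted p of 0.349 (0.0775 when blocked on the Set). Xpc passed in DESeq2 without the block (adjusted p 0.0232) and with it (0.00503), and its adjusted p in the authors' deposited table is 0.00569. Its partner in damage recognition, Ddb2, had few reads and values of 33.9, 35.7, 36.7 and 66.5 normalized counts in knockdown libraries 1 to 4, against 48.2, 41.2, 46.8 and 34.8 in control libraries 1 to 4, lower in Sets 1 to 3 and higher in Set 4. Rrm2b, the ribonucleotide reductase subunit that p53 induces to supply repair with nucleotides, was lower in all 4 Sets, with 83.6, 81.9, 78.3 and 121 normalized counts in knockdown libraries 1 to 4, against 89.4, 141, 133 and 159 in control libraries 1 to 4. Its limma adjusted p was 0.578 (0.184 blocking on the Set), and 0.197 in the authors' deposited table. Polk, a polymerase that copies past lesions, was also lower in all 4 Sets, by log2 -0.32, -0.15, -0.17 and -0.14 (limma adjusted p 0.922, or 0.416 blocking on the Set).

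**Figure D2:**
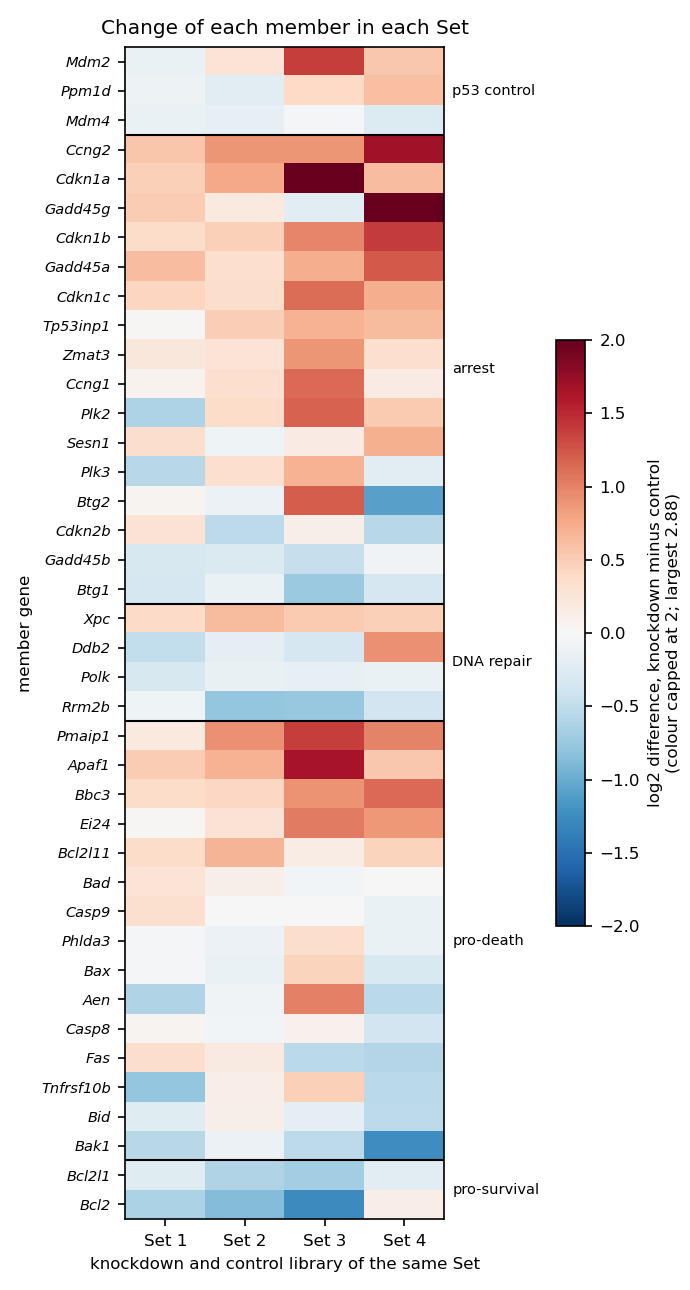
Log2 difference of each of the 40 members, knockdown minus control library of the same Set (columns), from log2(normalized count + 1), with members grouped by class and ordered within a class by their mean difference. Red is higher and blue lower in knockdown cells, and the colour scale is capped at 2, which Gadd45g in Set 4 (2.88) exceeds. The darkest red cells of Cdkn1a, Mdm2, Apaf1 and Pmaip1 stand in Set 3, and Bcl2l1 is blue in all 4 Sets.

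Members that promote death were split, 8 above and 7 below 0, with a median of 0.02. Among them the BH3-only genes Pmaip1 and Bbc3 and the apoptosome gene Apaf1 are listed as higher in the authors' deposited table. Pmaip1 (ENSRNOG00000018770) measured 376, 296, 465 and 435 normalized counts in knockdown libraries 1 to 4, against 327, 155, 177 and 218 in control libraries 1 to 4. Only knockdown library 2 lay under a control library, that of Set 1. The limma log2 fold change was 0.88 ± 0.262 (SE), with an adjusted p of 0.381 (0.0913 blocking on the Set), and the adjusted p in the authors' deposited table is 0.00986.

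Bbc3 (ENSRNOG00000048217) measured 65.4, 98.1, 166 and 306 normalized counts in knockdown libraries 1 to 4, against 50.8, 73.1, 88.7 and 139 in control libraries 1 to 4. In both groups the lowest value was in Set 1 and the highest in Set 4, and the knockdown library was higher in every Set, by log2 0.36, 0.42, 0.90 and 1.13. Limma gave a standard error of 0.499 without the Set and 0.202 with it (log2 fold change 0.70, adjusted p 0.722 and 0.118). This was the member nearest to the threshold in the deposited calls, with an adjusted p of 0.0456 in the authors' deposited table and 0.0519 in DESeq2 with the block. The remaining BH3-only members did not pass. Bcl2l11, encoding BIM, was higher in all 4 Sets (log2 0.37, 0.68, 0.15 and 0.44, limma adjusted p 0.87, or 0.221 blocking on the Set). Bad lay between 372 and 468 normalized counts in all 8 libraries. Bid was lower in 3 of 4 Sets, by log2 -0.24, 0.11, -0.18 and -0.52.

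Neither of the pore-forming effectors was called. Bax, a classical p53 target, measured 449, 278, 331 and 308 normalized counts in knockdown libraries 1 to 4, against 455, 304, 242 and 383 in control libraries 1 to 4, higher in Set 3 and lower in the others. Its limma log2 fold change was -0.00, with a 95% interval of -0.55 to 0.55, or -0.38 to 0.38 with the Set as a block. Bak1 measured 238, 257, 161 and 233 normalized counts in knockdown libraries 1 to 4, against 352, 279, 230.4 and 553 in control libraries 1 to 4, lower in every Set, and did not pass. Its limma log2 fold change was -0.61 (standard error 0.29), with an adjusted p of 0.547 (0.141 blocking on the Set), and 0.0836 in the authors' deposited table.

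Apaf1 (ENSRNOG00000008022), the scaffold of the apoptosome, measured 588, 982, 1216 and 964 normalized counts in knockdown libraries 1 to 4, against 414, 609, 388 and 664 in control libraries 1 to 4. Knockdown library 1 lay under control libraries 2 and 4, and the other 3 knockdown libraries were above all controls. The limma log2 fold change was 0.84 ± 0.269 (SE), with an adjusted p of 0.396 (0.099 blocking on the Set), and the adjusted p in the authors' deposited table is 0.0119. Casp9, the initiator caspase that APAF1 activates, was not called, with log2 differences of 0.32, 0.01, 0.01 and -0.13 in Sets 1 to 4 and a limma 95% interval of -0.44 to 0.55. Ei24, a p53-induced protein of the endoplasmic reticulum, was higher in all 4 Sets, by log2 0.03, 0.29, 1.04 and 0.87, without passing (limma adjusted p 0.595, or 0.152 blocking on the Set, and 0.0947 in the authors' deposited table).

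Death receptor members showed no call in either direction. Fas measured 152, 232, 491 and 1011 normalized counts in knockdown libraries 1 to 4, against 119, 205, 715 and 1514 in control libraries 1 to 4, so that Sets 1 and 2 were low and Sets 3 and 4 high in both groups. The knockdown library was higher in Sets 1 and 2 and lower in Sets 3 and 4. Tnfrsf10b, the TRAIL receptor DR5, had between 10 and 56 reads per library and was lower in Sets 1 and 4 and higher in Sets 2 and 3. Casp8, the caspase those receptors activate, differed by log2 0.05, -0.06, 0.08 and -0.38. The p53 targets Phlda3, a brake on the kinase AKT, and Aen, a nuclease of apoptotic cells, had limma log2 fold changes of 0.02 and -0.05, and for Aen the differences ran from log2 -0.60 in Set 1 to 1.01 in Set 3.

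Both pro-survival members that were found had a lower mean in knockdown cells. Bcl2l1, whose main product BCL-XL protects mitochondria, measured 321, 336, 244 and 381 normalized counts in knockdown libraries 1 to 4, against 382, 509, 393 and 446 in control libraries 1 to 4. All knockdown libraries lay below all control libraries, and the log2 differences were -0.25, -0.60, -0.69 and -0.23. The limma log2 fold change of -0.44 (standard error 0.184) had an unadjusted p of 0.0412 and an adjusted p of 0.509, or 0.133 with the Set as a block, and 0.107 in the authors' deposited table, so Bcl2l1 was not called. Gene-level counts do not separate its long protective form from its short pro-death form. Bcl2 had between 5 and 22 reads per library and did not pass the filter on low reads; its values were 4.14, 9.73, 10.6 and 9.65 normalized counts in knockdown libraries 1 to 4, against 7.01, 18.6, 27.1 and 8.70 in control libraries 1 to 4.

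**Figure D3:**
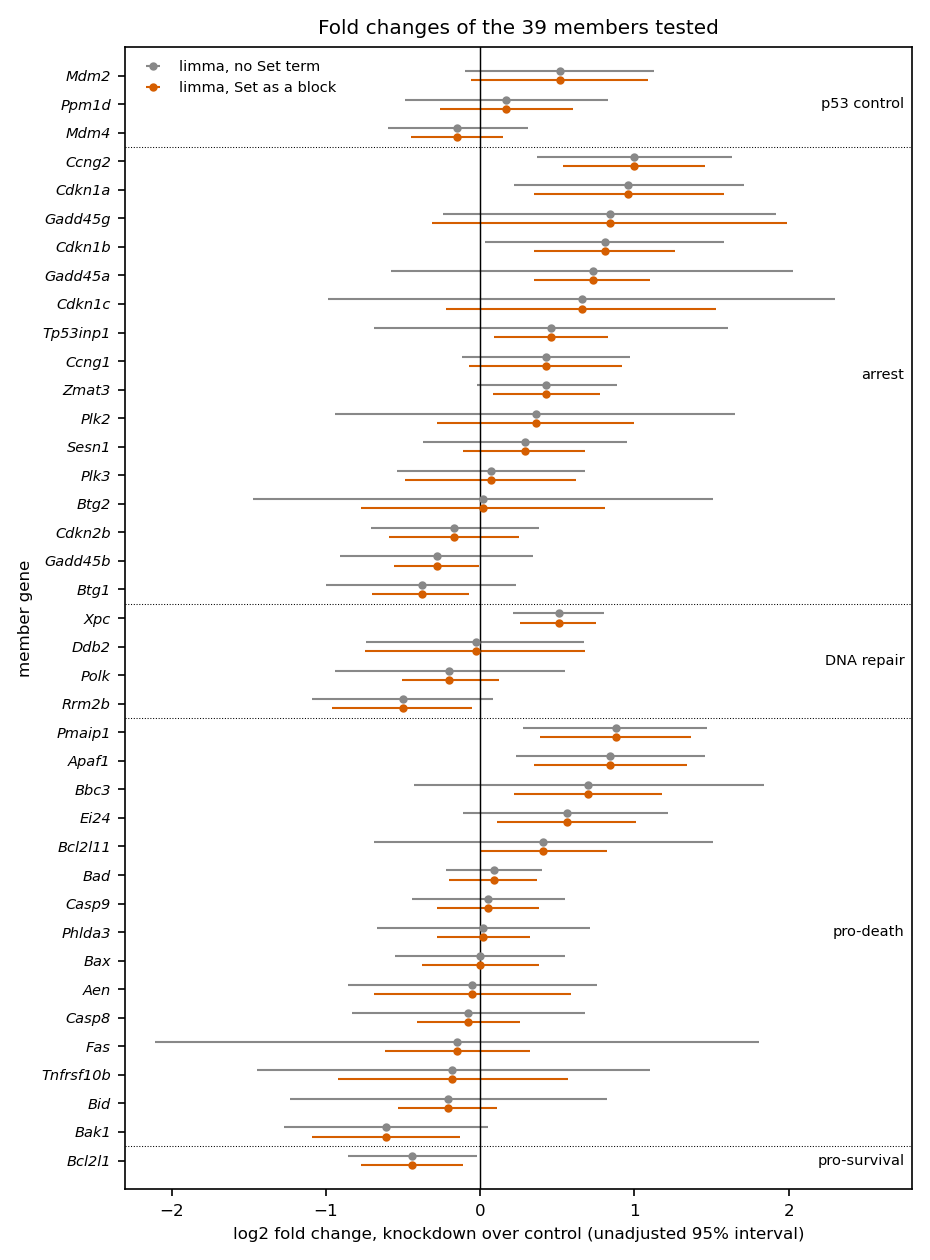
Log2 fold change, knockdown over control, of the 39 members tested in limma (x axis), by class, with unadjusted 95% intervals without the Set (grey) and with the Set as a block (orange). With the block the intervals of Cdkn1b, Gadd45a, Bbc3 and Ei24 are narrower and lie above 0, the interval of Bcl2l1 lies below 0, and those of Bax and Phlda3 span 0.

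Set side by side, the classes had 13 of 16 (arrest), 1 of 4 (DNA repair), 8 of 15 (death) and 0 of 1 (survival) tested members above 0, where 50.1% of all genes tested were above 0. The median over the 39 members was 0.09. Calls in the authors' deposited table numbered 4 of 15 arrest, 1 of 4 repair, 3 of 15 death, 0 of 1 survival and 0 of 3 p53 control members, all higher in knockdown cells, where 4.09% of all genes are listed as higher and 5.22% as lower. The difference between classes was not tested. The median of the arrest members was above 0 in every Set, at 0.26, 0.33, 0.80 and 0.57, whereas that of the death members was 0.05, 0.12, 0.35 and -0.14 and that of the repair members -0.21, -0.17, -0.26 and 0.17 in Sets 1 to 4.

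The size of the members' differences varied between Sets. A log2 difference above 0.5 was seen for 3 of the 39 members in Set 1, 6 in Set 2, 18 in Set 3 and 16 in Set 4, against 11.6%, 10.9%, 19.3% and 21.1% of all genes tested. One below -0.5 was seen for 5, 3, 5 and 7 members, against 8.36%, 13.5%, 24.9% and 19.4%. Among the 39 members, the largest log2 differences above 0 were those of Gadd45g in Set 4 (2.88) and Cdkn1a in Set 3 (1.99). The largest below 0 were those of Bak1 (-1.24) and Btg2 (-1.08), both in Set 4. For Cdkn1a (2376), Mdm2 (2585), Apaf1 (388) and Plk2 (495), among others, control library 3 was the lowest of all 8. Knockdown libraries held 63.3%, 37.2%, 27.3% and 48.6% of their control's Nfat5 CPM in Sets 1 to 4. A relation between that share and the members was not tested. Each Set has 1 library per group, so a difference between Sets cannot be tested.

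Further genes of the pathway were taken from 9 lists of related genes that hold none of the members. Beside the calls in each of the 9 lists stand the shares over all genes in the authors' deposited table, 4.09% higher and 5.22% lower. Of 23 tested p53 family members and other p53 targets, 15 were above 0 and 8 below (median 0.05), and the authors' deposited table lists 4 as higher and 1 as lower. Sesn2, which restrains mTORC1 and also answers to ATF4, measured 588, 699.9, 962 and 1781 normalized counts in knockdown libraries 1 to 4, against 447, 359, 219 and 555 in control libraries 1 to 4, with every knockdown library above every control library (adjusted p 0.000925 in the authors' deposited table). The receptor gene Notch1 (log2 1.16), Tp53i11 (0.62) and the iron reductase gene Steap3 (0.66) are also listed as higher in the authors' deposited table, and the receptor kinase gene Epha2 (-0.83) as lower.

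Outside the members, 2 of 9 tested BCL2 family genes are listed as higher in the authors' deposited table and 1 as lower, with 4 above and 5 below 0 in limma. Bmf, a BH3-only gene, measured 419, 559, 599 and 533 normalized counts in knockdown libraries 1 to 4, against 189, 363, 412 and 204 in control libraries 1 to 4, and the groups did not overlap (adjusted p 0.00137 in the authors' deposited table). Bok, a BAX-like effector, is the other one listed as higher (log2 0.84). Bcl2a1, a guardian driven by NF-kB, measured 16.6, 5.68, 12.6 and 25.7 normalized counts in knockdown libraries 1 to 4, against 65.7, 6.64, 90.0 and 154 in control libraries 1 to 4, and is listed as lower (log2 -1.44, adjusted p 0.000195, in the authors' deposited table).

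Caspases and their inhibitors went both ways. Of 19 tested, 8 were above 0 and 11 below, and the authors' deposited table lists 2 as higher, Casp6 (log2 0.74) and Casp12 (0.72), and 4 as lower. Among the lower ones are the inhibitor of apoptosis genes Birc2 (-0.48) and Birc3 (-1.20). Death receptor signalling had 6 of 14 tested genes above 0 (median -0.07), with 0 listed as higher in the authors' deposited table and 3 as lower. These were Cflar, the inhibitor of caspase 8 (log2 -0.91), the necroptosis effector Mlkl (-0.88) and the receptor Tnfrsf21 (-0.83).

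Among 15 tested genes of other CDK inhibitors and the RB family, 10 were above 0 (median 0.11), and the authors' deposited table lists E2f4, a repressor of cell cycle genes, as lower (log2 -0.71). In limma Tob1, an antiproliferative relative of the Btg genes, had the next lowest p (log2 fold change 0.38, adjusted p 0.546). Nucleotide excision and translesion repair genes had 13 of 28 tested above 0 (median -0.06), and the table lists Gtf2h1 as lower (log2 -0.56 in the authors' deposited table). Polh, a lesion-bypass polymerase and p53 target, measured 339, 391, 781 and 503 normalized counts in knockdown libraries 1 to 4, against 361, 266, 249 and 220.3 in control libraries 1 to 4, and did not pass (adjusted p 0.0625 in the authors' deposited table). In limma Cetn2, the centrin that binds XPC, differed by log2 -0.47, at an adjusted p of 0.503. Checkpoint kinases and damage sensors had 4 of 19 tested above 0 (median -0.20), with Mre11a (log2 -0.50) and Clspn (-0.88) listed as lower in the authors' deposited table. Mdc1 differed by log2 -0.72 in limma, at an adjusted p of 0.463.

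Cell cycle genes and genes of the integrated stress response are given beside the arrest and death members. Cell cycle genes had 9 of 34 tested above 0 and a median of -0.26, at 0.20, -0.24, -0.50 and -0.37 in Sets 1 to 4, and the authors' deposited table lists Ccnd2 as higher (log2 0.84) and 0 as lower. The replication genes with the lowest limma p were Cdc6 (log2 fold change -1.15, adjusted p 0.455) and Tyms (-0.56 and 0.486). Genes of the integrated stress response, driven by ATF4 and CHOP, had 15 of 20 tested above 0 and a median of 0.64, and it was 0.08, 0.30, 1.04 and 1.23 in Sets 1 to 4. Of these, 6 are listed as higher (4.09% of all genes) and 1 as lower (5.22% of all genes) in the authors' deposited table. Listed there as higher are Trib3 (log2 1.08), Chac1 (1.39), Sesn2 (named above among the p53 targets), Vldlr (1.12), Phgdh (0.92) and Fgf21 (1.80), and as lower the phosphatase subunit Ppp1r15a (-0.79). Limma's log2 fold changes were larger than the deposited ones for these 6 higher genes, such as 1.82 for Trib3 and 4.14 for Fgf21. Control libraries 3 and 4 held only 1.23 and 0.966 normalized counts of Fgf21. The part of the integrated stress response genes in the changes of the members was not tested. DESeq2 with the block gave as many calls in each direction in each of these 9 lists as the authors' deposited table, and limma passed 0 genes of any list. Over all genes, DESeq2 with the block called 4.31% as higher and 5.45% as lower. At an unadjusted p under 0.05 limma had 7 integrated stress response genes higher and 0 lower, and 0 cell cycle genes higher and 5 lower. The other lists had between 0 and 3 genes in each direction, where 4.36% of all genes were higher and 5.14% lower.

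**Figure D4:**
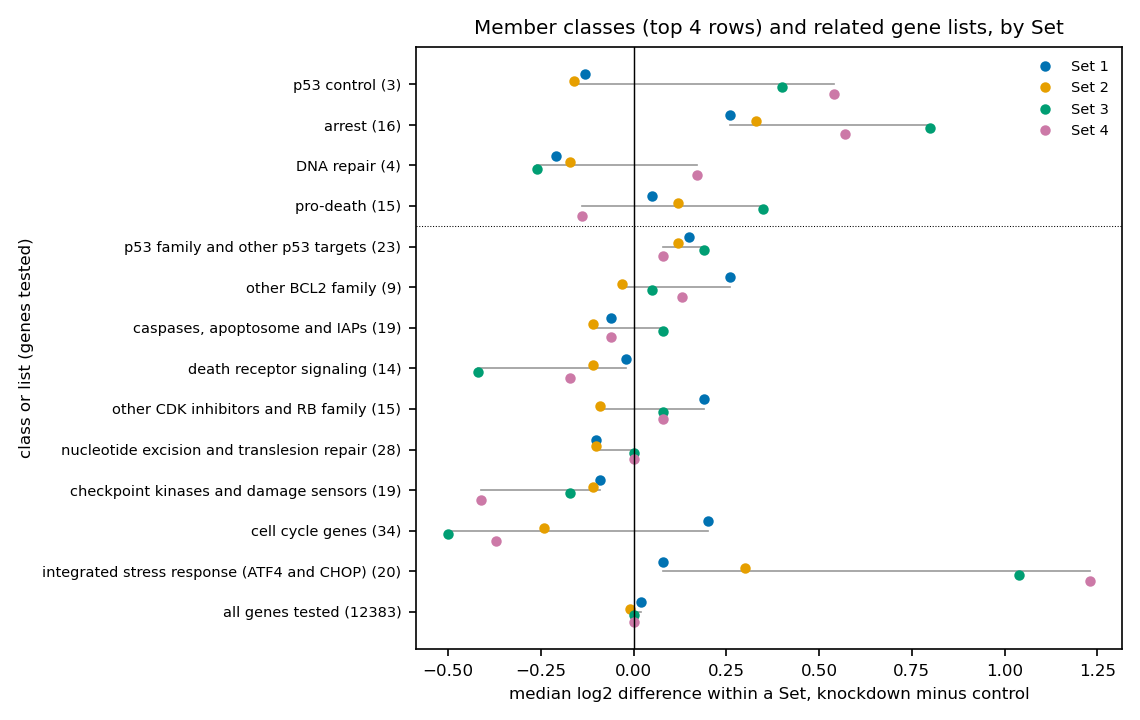
Median log2 difference within each Set, knockdown minus control (x axis), for the 4 member classes with more than 1 tested gene and for the related gene lists, with the number of genes tested in brackets. Points are Sets 1 to 4 and grey lines span them. Arrest members lie above 0 in every Set, the integrated stress response spans 0.08 to 1.23, cell cycle genes lie below 0 in Sets 2 to 4, and all genes tested lie at 0 within 0.02.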

How the data were processed

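RNA of 8 libraries was sequenced. The submitters' processing notes name Novoalign 2.08.01, DESeq2 1.10.1 and the build rn5. The read counter, the annotation and whether strand was used: not given in the sources used here. Reads shared between overlapping genes or paralogs could not be checked. The deposited signal values are read counts that the authors divided by 1 factor per library: whole reads were recovered for 100% of values within 0.001 reads. The log2 fold changes (knockdown over control) and adjusted p-values of the deposited table are the authors' own, with no p for 1362 genes.

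From the deposited signal values, limma 3.58.1 (mean-variance trend, group as the only term, 2-sided) was fitted to log2(value + 1) of the 12383 genes that passed edgeR's filterByExpr on the recovered reads, with Benjamini-Hochberg adjustment over all of them at 0.05. Fold changes on this scale understate those of low genes. Standard errors and intervals are limma's. EdgeR 4.0.16 (quasi-likelihood, TMM) and DESeq2 1.42.0 ran on the recovered reads as alternatives. The limma, edgeR and DESeq2 fits were also tried on simulated data that held no differences between Sets. That trial therefore cannot show how the fits behave on libraries that differ by Set, as these do. R 4.3.3 and matplotlib 3.10.9 were used. Reads per library limit the precision of low genes.

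Same-numbered libraries deviated together from their group means (correlation across genes 0.81, 0.75, 0.68 and 0.70 in Sets 1 to 4), so the Set numbers pair the samples; the pairing comes from the sample titles. The members and lists were chosen with earlier results of these data known. The genes named are every member found, Nfat5, and from each related list the genes called in the authors' deposited table or limma plus the 2 with the lowest limma p, except that some genes of those lists are not reported here. Sequences are RefSeq's (GRCr8), and motifs were chosen after the members' values were known.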

Additional observations from a re-analysis of the deposited data

Results flagged for a closer look

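In 80 groups of 4 libraries (40 members in each of the 2 groups), 5 held a library far from the other 3, where chance marks about 1 in 20 groups. In control cells, Btg2 was 4519 normalized counts in library 4, against 675 to 739 in the others. In knockdown cells, library 4 was the high one for Tp53inp1 (939, against 251 to 366), for Ddb2 (66.5, against 33.9 to 36.7) and for Rrm2b (121, against 78.3 to 83.6). Bcl2 in knockdown library 1 was low, at 4.14 against 9.65 to 10.6, which are values of few reads.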

How the results depend on the processing

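The count over all genes, 1 in limma, was 0 with the replicate block in limma or edgeR, 163 in DESeq2 without and 1174 with the replicate block, 1140 as the authors deposited it, and 0 with any library or any Set left out of limma. The count of members, 0 in limma, was 1 in DESeq2 without and 7 with the replicate block and 8 in the authors' deposited table; with libraries or Sets left out it ran from 0 (limma) to 7 (DESeq2 with the replicate block, whose runs without a Set were added after seeing the data). The cause of these differences was not tested. With a library or a Set left out, the median of the members ran from 0.06 to 0.26, of arrest members from 0.27 to 0.58, of repair members from -0.28 to -0.00, of death members from -0.05 (without knockdown library 4) to 0.21 and of survival members from -0.53 to -0.32.

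Direction held for 24 of the 39 members in all 22 alternatives. It turned for Btg2 (-0.37 in DESeq2 and edgeR without the block, -0.02 in the authors' deposited table; leaving out libraries, -0.38 to 0.69), Plk2 (-0.01 in edgeR without the block; -0.09 to 0.92), Plk3 (-0.01 in both tools without the block; -0.14 to 0.28), Ddb2 (0.01; -0.35 to 0.12) and Phlda3 (-0.02; -0.22 to 0.18). With libraries left out alone it turned for Ppm1d (-0.05 to 0.30), Cdkn2b (-0.32 to 0.03), Polk (-0.44 to 0.04), Bax (-0.16 to 0.14), Bid (-0.50 to 0.19), Fas (-0.73 to 0.49), Tnfrsf10b (-0.52 to 0.13), Casp8 (-0.28 to 0.17), Casp9 (-0.06 to 0.21) and Aen (-0.40 to 0.24). None of these 15 was called in any setting. Few reads limit Cdkn1c, Bcl2, Tnfrsf10b and Ddb2.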
